A study of Mus musculus with 4 samples.

Results

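The genes described here are the protein-coding hnRNP, SR and core U2 splicing factors of mouse Th17 cells, measured after a CRISPR guide against Adarb1. They were taken by symbol from the deposited table: 20 genes whose symbol begins with Hnrnp, 11 SR genes (Srsf followed by a number), and 12 core U2 genes (Sf3a, Sf3b and U2af). That makes 43 of 55450 genes, and all 43 had a fold change. The rule that picks the genes uses names and gene types only, not measured values, but it was set with earlier results of these data known. Th17 cells are CD4 helper T cells that secrete IL-17. Adarb1 encodes ADAR2, one of the deaminases that turn adenosine into inosine within double-stranded RNA.

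Both groups were cultures of naive CD4 T cells from wildtype mice aged 8 to 12 weeks that carried a Cas9 transgene. The sources used here do not name the promoter of the transgene. All cultures were activated through CD3 (0.25 µg/mL) and CD28 (1 µg/mL), transduced with a PSIN retrovirus at 24 h, and driven towards Th17 for 72 h with TGF-β at 0.3 ng/mL and IL-6 at 20 ng/mL. The 2 sgAdarb1 cultures received the guide and the 2 control cultures the empty vector, and the labels name no guide against an unrelated site as a control for cutting. There were 2 donor mice, and each gave 1 culture to each group. The labels mention neither sorting nor selection of transduced cells.

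Pre-mRNA splicing removes introns through the spliceosome, a machine of small nuclear RNAs and proteins. SR proteins carry RNA recognition motifs and a tail rich in arginine and serine, bind exonic enhancers and recruit the machinery, and several also act in mRNA export and translation. The hnRNPs coat nascent transcripts and often act against exon inclusion, although many also work in RNA stability, transport and telomere or chromatin biology. The U2AF dimer recognises the 3′ splice site, and the SF3A and SF3B complexes hold U2 snRNA on the branch point. In T cells, HNRNPLL and other members of these families are known for the switch of CD45 isoforms on activation.

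Every value per gene is the authors' own: a mean normalized count over libraries, and from DESeq2 a log2 fold change and its standard error (SE). Values per culture cannot be given, because the names of the 4 columns with values per library match no sample label, so they were not used. The table names no numerator. A positive fold change is read here as higher with sgAdarb1, following the order in the design text, and every sign would turn if the authors divided the other way. Groups follow the sample titles. In 2 of the 4 samples the treatment tag names the other group (replicate 1 is tagged as control throughout and replicate 2 as sgAdarb1), and which of them the authors used could not be checked. Had they followed the tag, the fold changes would set replicate 2 against replicate 1. In bulk cultures, fewer cells of a type and less RNA per cell cannot be told apart.

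Th17 and T cell markers were present: in the authors' deposited table all 8 listed genes had a mean count of 611 or more, with Cd4 at 15286, Cd3e at 5150 and Il17a at 1756. Of these 8, 7 had a log2 fold change above 0 in the authors' deposited table, led by the cytokine genes Il17f at 1.11 ± 0.53 and Il17a at 0.70 ± 0.15. Il17a had the smallest unadjusted p of all genes in the authors' deposited table, 2.9e-06 by the DESeq2 Wald test. No gene had a DESeq2 adjusted p below its 0.0709, which misses the threshold of 0.05. Among markers of other cells, the 5 B cell genes had means from 129 to 414 in the authors' deposited table, 5 CD8 T and NK cell genes from 1.24 to 287, and 6 myeloid genes from 2.14 to 59.8. None of the markers of other cells was listed at 0. Their log2 fold changes ran from -0.42 to 0.43 for B cell genes, from -0.98 to 0.74 for CD8 T and NK cell genes and from 0.015 to 1.67 for myeloid genes, with SEs of at least 0.30, in the authors' deposited table. The part of any of these marker lists in the values of the splicing factors was not tested. Adarb1 itself had a mean count of 2130 and a log2 fold change of 0.11 ± 0.12 (SE) in the authors' deposited table, which does not check the labels, since a Cas9 cut can leave mRNA in place.

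The splicing factors were among the well expressed genes of these cells. Together the 43 genes took 1.24% of the sum of all mean counts of the authors' deposited table, 0.847% for the hnRNPs, 0.167% for the SR genes and 0.222% for core U2. The median mean normalized count was 6190 for hnRNP genes, 3075 for SR genes and 1905 for all 12 core U2 genes in the authors' deposited table. Among the 11953 protein-coding genes with a mean count of at least 10 it was 451.

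To set genes side by side, the mean normalized count was divided by the exon length of the gene in GENCODE M21, which gives a level per kb. On that scale Hnrnpab, an A/B-type hnRNP, was highest at 4496 per kb, ahead of Hnrnpa1 at 3484, the archetype that binds exonic silencers. Hnrnpa2b1 followed at 2650 per kb, with Hnrnpk, a KH-domain protein that binds C-rich RNA, and Hnrnpa3 both at 2377. Next in level per kb were Hnrnpc, which binds uridine tracts, at 1854, Hnrnpf at 1820 and Hnrnpu, also known as SAF-A, at 1800. The lowest hnRNPs were Hnrnpll at 128 per kb, Hnrnph3 at 107 and Hnrnpr at 96.9. The exons of Hnrnpr add up to 22199 bases in the annotation, which lowers its value. The hnRNP levels thus spanned a wider range than those of the expressed members of the other groups.

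SR genes were led by Srsf2 (SC35) at 1424 per kb, Srsf5 at 1015, Srsf1 (ASF/SF2) at 955 and Srsf9 at 944. Srsf6 stood at 639 per kb, Srsf7 at 570, Srsf3 at 401, Srsf11 at 372, Srsf10 at 326 and Srsf4 at 152. Srsf12 was close to silent at 4.34 per kb. In core U2, U2af2, the large U2AF subunit that binds the polypyrimidine tract, stood at 1265 per kb and its small partner U2af1, which reads the AG of the 3′ splice site, at 589. The 9 SF3 genes ran from 161 per kb for Sf3b5 to 1144 for Sf3b2, with Sf3b1, the branch point clamp, at 653. U2af1l4, a paralogue of U2af1, was counted at only 1.88 per kb, but most of its exon bases overlap another gene, as given below. Neighbours in these orders cannot be separated by their spread over samples, because no values per culture were used.

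**Figure D1:**
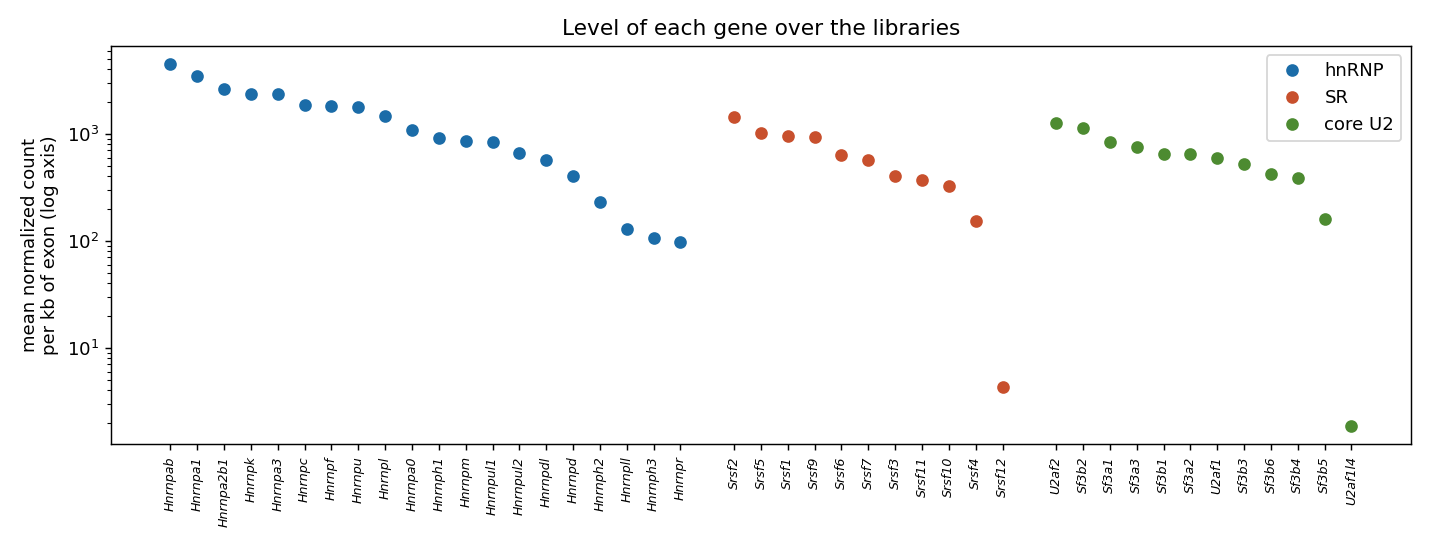
Mean normalized count per kb of annotated exon (log axis) for each of the 43 genes, 1 point per gene, sorted within the hnRNP, SR and core U2 groups. Hnrnpab at 4496 per kb is highest, while Srsf12 at 4.34 and U2af1l4 at 1.88 stand far below all others.

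The annotation of these genes differed between the groups in a feature the choice of genes did not use. Many SR genes are known to control their own amounts through exons or introns that bring in early stop codons and send the mRNA to nonsense-mediated decay. GENCODE M21 lists at least 1 such decay transcript for 9 of 11 SR genes (81.8%) and 10 of 20 hnRNP genes. The count was 4 of all 12 core U2 genes (33.3%), or 3 of the 11 with a mean count of at least 10 (27.3%). Of the 3635 protein-coding genes with a mean count of at least 1000 it was 31.1%. Decay transcripts were also listed for 7 of 8 SR-like cofactors, 8 of 9 genes for SR kinases and import and 7 of 8 U1 proteins. Of all 87 other splicing factors described below, 43 had them (49.4%). Retained-intron transcripts were listed for 72.7% of SR, 70.0% of hnRNP and 69.3% of the abundant protein-coding genes. For core U2 it was 81.8% of the same 11 genes and 83.3% of all 12. Srsf11 had 19 annotated transcripts, 3 of them decay targets and 11 with a retained intron, and Hnrnpk had 34, with 3 and 13. The deposited values are per gene and add all these forms together, so the share of each isoform was not measured.

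**Figure D2:**
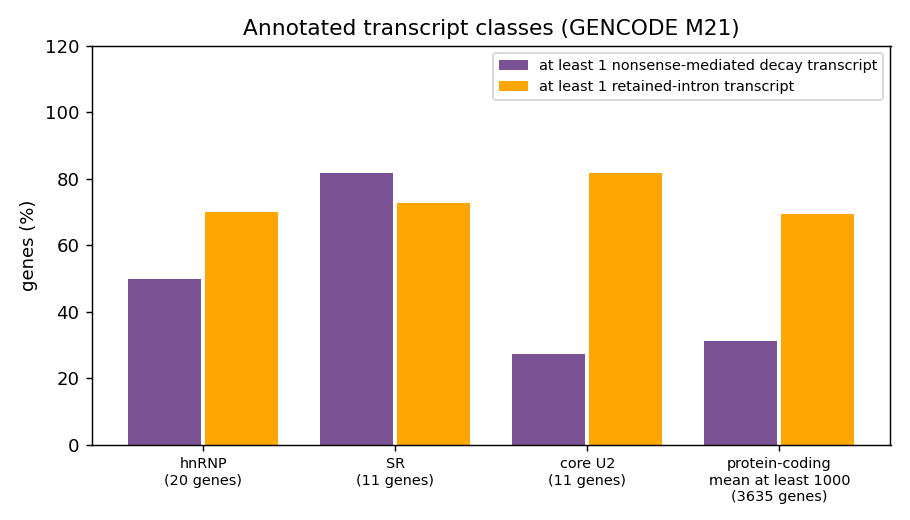
Percentage of genes with at least 1 annotated nonsense-mediated decay transcript or retained-intron transcript in GENCODE M21, for the 3 groups and for protein-coding genes with a mean count of at least 1000. Decay transcripts are annotated for 81.8% of SR genes against 31.1% of the abundant protein-coding genes, while retained introns are about as common in each set. Core U2 is drawn for its 11 genes with a mean count of at least 10.

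Promoters are shown because the groups differed in the short motifs just upstream of their start sites. RefSeq promoters (GRCm38.p6) were matched by symbol for 38 of 43 genes, with no entry for Hnrnpll, Hnrnpul2, Sf3b4, Sf3b5 and U2af2. In the 250 bases before the start, on both strands, the CCAAT box (CCAAT) stood in 12 of 18 hnRNP promoters (66.7%). It stood in 3 of 11 SR promoters (27.3%) and 3 of 9 core U2 promoters (33.3%), against 36.3% of 2899 promoters of protein-coding genes with a mean count of at least 1000. The GC box (GGGCGG) stood in 10 of 11 SR promoters (90.9%), 13 of 18 hnRNP promoters (72.2%) and 5 of 9 core U2 promoters (55.6%), against 66.0%. The ETS motif (CCGGAAG) stood in 6 of 9 core U2 promoters (66.7%), 4 of 11 SR promoters (36.4%) and 2 of 18 hnRNP promoters (11.1%), against 17.1%. Over all 16521 matched protein-coding promoters the shares were 36.1% for the CCAAT box, 44.5% for the GC box and 9.53% for the ETS motif. The median GC content of these windows was 68% for SR, 60.6% for hnRNP and 60.4% for core U2, against 62% for abundant genes. The part of window composition in the motif counts was not tested.

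The TATA box (TATAAA) was found in 4 of these promoters, those of Hnrnpm, Srsf2, Srsf3 and Sf3b3, against 5.76% of promoters of abundant genes. Between 40 and 20 bases before the start, near where a TATA box acts, only that of Srsf2 held it, against 0.966% of promoters of abundant genes. Of 8 motifs searched, the NRF1 motif and the cAMP response element (TGACGTCA) matched none of the 38 windows. Both are rare, in 2.0% and 3.1% of promoters of abundant genes. The E-box (CACGTG) matched Hnrnpa3 and Hnrnpd, against 9.52% of promoters of abundant genes. The core of the YY1 motif (ATGGCGG) matched Hnrnpa2b1, Hnrnpk and Srsf10, against 4.69%. Matches of different motifs overlapped in 2 of the 38 promoters. These counts are not tested and a match is not a binding site.

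The stretches below are the 120 bases nearest the start that hold the group's frequent motif and no annotated exon, for up to 2 genes per group, taken from the most negative Wald statistic upward (fold change divided by its SE). The motif for each group was chosen after the counts were seen, and only 1 core U2 gene met the rule. Capitals mark matches to any of the 8 motifs on either strand, so a motif can also appear as its reverse complement. The Hnrnpa2b1 stretch is chr6:51469895-51470014 on the minus strand, and its CCAAT match overlaps that of the YY1 core.
Hnrnpa2b1: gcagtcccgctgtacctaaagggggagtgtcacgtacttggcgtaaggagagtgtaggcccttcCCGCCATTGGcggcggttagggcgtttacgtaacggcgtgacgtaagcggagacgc
The Hnrnph1 stretch is chr11:50376740-50376859 on the plus strand, ending 130 bases before the RefSeq start.
Hnrnph1: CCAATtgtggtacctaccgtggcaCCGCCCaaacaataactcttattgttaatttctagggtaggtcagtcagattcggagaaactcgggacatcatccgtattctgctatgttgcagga
For SR genes, the Srsf4 stretch is chr4:131873497-131873616 and the Srsf6 stretch chr2:162931388-162931507, both on the plus strand.
Srsf4: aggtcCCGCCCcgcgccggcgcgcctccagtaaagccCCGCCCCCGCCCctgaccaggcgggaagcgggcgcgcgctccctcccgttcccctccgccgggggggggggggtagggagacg
Srsf6: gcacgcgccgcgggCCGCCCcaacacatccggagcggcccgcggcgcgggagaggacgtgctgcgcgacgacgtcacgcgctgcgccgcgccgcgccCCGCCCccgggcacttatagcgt
For core U2, the Sf3b6 stretch is chr12:4817424-4817543 on the plus strand, with a GC box directly beside an ETS match.
Sf3b6: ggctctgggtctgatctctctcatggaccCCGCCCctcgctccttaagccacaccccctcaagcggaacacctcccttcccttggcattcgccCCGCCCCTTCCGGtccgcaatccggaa

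The comparison asks whether the guide against Adarb1 went with a different amount of mRNA for these factors. None of the 43 genes passed in the authors' deposited table: by DESeq2, 0 had an adjusted p under 0.05, against 0% of the 29383 genes with a fold change. At an unadjusted p below 0.05 the count was also 0 of 43, beside 61 of 29383 genes, or 0.208%. Over genes with a mean count of at least 10, the robust spread of the Wald statistics was 0.541, narrower than a standard normal. The deposited p-values may thus be too large and the intervals too wide, so a count of 0 does not show that these genes were unchanged. With the statistics scaled by that spread, the smallest adjusted p of a member was 0.182 (Benjamini-Hochberg). The smallest unadjusted p of a member was 0.0842, for Hnrnpdl, in the authors' deposited table. The differences were small and most were well bounded. The 95% interval, computed from the deposited SE, lay inside -0.5 to 0.5 on the log2 scale for 39 of 43 genes and inside -0.3 to 0.3 for 26. The exceptions to the wider bound were Hnrnph3, Srsf4, Srsf12 and U2af1l4, which have means of 338, 543, 13.6 and 3.11 in the authors' deposited table.

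The estimates of the 3 groups lay differently around 0. All 11 SR genes and 16 of 20 hnRNP genes had a log2 fold change below 0 in the authors' deposited table. For core U2 it was 6 of the 11 genes with a mean count of at least 10, which leaves out U2af1l4 at a mean of 3.11. The SR count includes Srsf12, whose -0.13 ± 1.17 (SE) allows either direction. Among all 14547 genes with a mean count of at least 10 the share below 0 was 49.5%, and among abundant protein-coding genes it was 50.8%. The median log2 fold change was -0.064 for SR, -0.059 for hnRNP and -0.021 for the 11 core U2 genes with a mean count of at least 10. The corresponding median over abundant protein-coding genes was -0.0017. The order of the groups rested on which genes were kept: without genes whose exons overlap another gene, the medians were -0.075 for SR, -0.040 for hnRNP and -0.067 for core U2, so core U2 was then further below 0 than hnRNP. The difference between the groups was not tested, since genes are not replicates of a condition and their errors within the same cultures are shared.

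**Figure D3:**
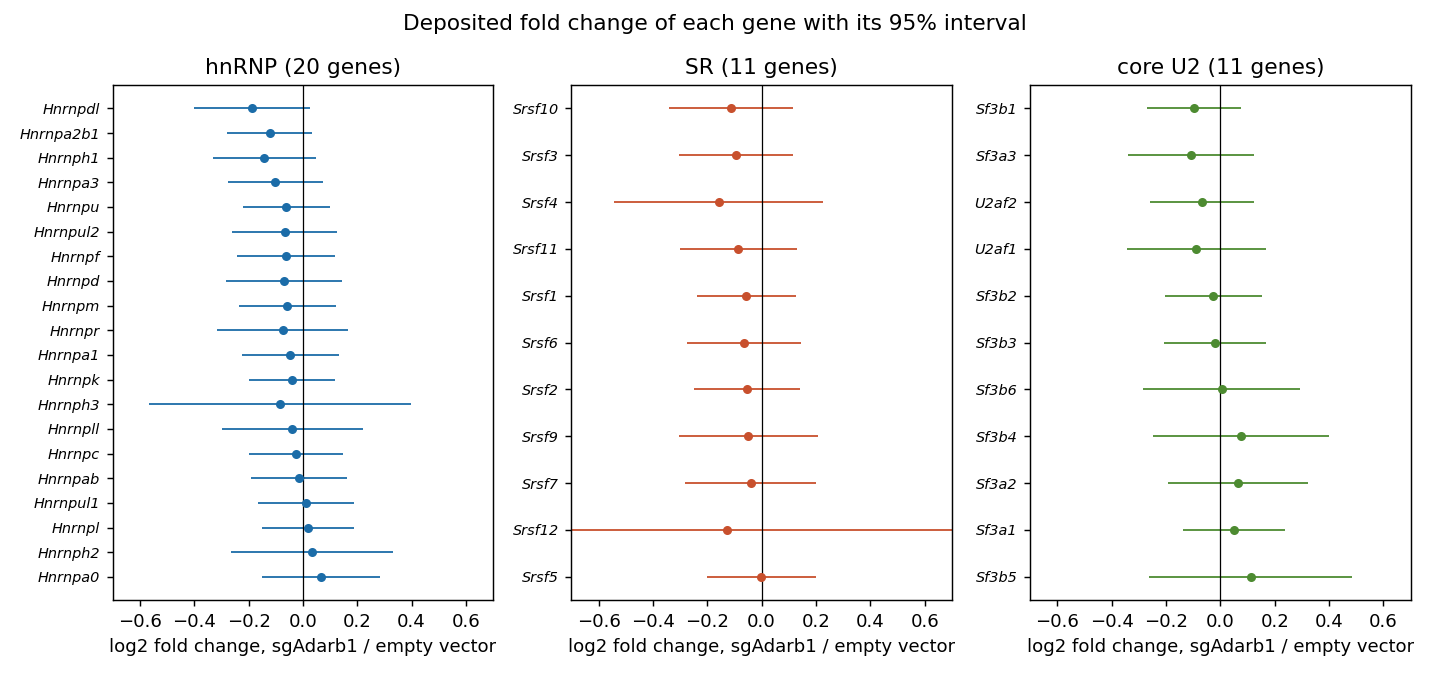
Log2 fold change of each gene (point) with its 95% interval (line) from the deposited SE, by group and ordered by the Wald statistic. All intervals cross 0, the 11 SR points lie below 0, and the interval of Srsf12 runs past the axis on both sides. U2af1l4, with a mean of 3.11, is not drawn.

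Among hnRNP genes the 3 most negative Wald statistics were those of Hnrnpdl, Hnrnpa2b1 and Hnrnph1. Hnrnpdl, a relative of the AU-rich element binding protein HNRNPD, lies on chromosome 5 from 100033577 to 100039664 on the minus strand (mm10). Its log2 fold change was -0.19 ± 0.11 (SE) at a mean count of 2728 in the authors' deposited table, with an interval from -0.40 to 0.025. Hnrnpa2b1 (chromosome 6, 51460932 to 51469894) encodes a protein that also binds RNA in transport granules and sorts RNA into vesicles. It stood at -0.12 ± 0.080 with a mean count of 17449 in the authors' deposited table, an unadjusted p of 0.126 and an interval from -0.28 to 0.034. Hnrnph1 (chromosome 11, 50376990 to 50386528), which binds runs of G, stood at -0.14 ± 0.097 with a mean count of 5361 in the authors' deposited table, an unadjusted p of 0.144 and an interval from -0.33 to 0.048. All 3 intervals include 0.

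On the other side of 0 were 4 hnRNP genes. Hnrnpa0 (chromosome 13, 58125879 to 58128556), a single-transcript gene, stood at 0.067 ± 0.11 (mean count 2892, unadjusted p 0.542) in the authors' deposited table, with an interval of -0.15 to 0.28. Hnrnph2, the X-linked relative of Hnrnph1 (134601179 to 134607060), stood at 0.035 ± 0.15 (mean count 1014, unadjusted p 0.817) in the authors' deposited table, with an interval of -0.26 to 0.33. Hnrnpl (chromosome 7, 28808541 to 28822266), which binds CA repeats, stood at 0.019 ± 0.086 (mean count 8726, unadjusted p 0.824) in the authors' deposited table, with an interval of -0.15 to 0.19. Hnrnpul1 was at 0.012 ± 0.090 with a mean count of 7204 in the authors' deposited table.

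The other 13 hnRNP genes lay between -0.10 and -0.014. Of the A/B type, Hnrnpa3 was at -0.10 ± 0.090 (mean 12824), Hnrnpd at -0.071 ± 0.11 (mean 2963), Hnrnpa1 at -0.047 ± 0.091 (mean 10986) and Hnrnpab at -0.014 ± 0.089 (mean 12509) in the authors' deposited table. For the G-run binders, Hnrnph3 was at -0.086 ± 0.25 (mean 338) and Hnrnpf at -0.062 ± 0.092 (mean 5547) in the authors' deposited table. Hnrnpu, the most counted member at a mean of 20879, was at -0.061 ± 0.081, and its relative Hnrnpul2 at -0.066 ± 0.099 (mean 4726) in the authors' deposited table. Hnrnpr was at -0.075 ± 0.12 (mean 2150), Hnrnpm at -0.057 ± 0.091 (mean 6833), Hnrnpk at -0.039 ± 0.081 (mean 15368) and Hnrnpc at -0.026 ± 0.089 (mean 8011) in the authors' deposited table. Hnrnpll, known for CD45 splicing in T cells, was at -0.040 ± 0.13 (mean 1496) in the authors' deposited table. The members with the smallest SEs, about 0.08 for Hnrnpa2b1, Hnrnpk and Hnrnpu, are those with the highest means.

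For SR genes the most negative Wald statistics were those of Srsf10, Srsf3 and Srsf4. Srsf10 (chromosome 4, 135855747 to 135869908), an SR protein that represses splicing when dephosphorylated, stood at -0.11 ± 0.12 with a mean count of 2280 in the authors' deposited table, an unadjusted p of 0.328 and an interval from -0.34 to 0.11. Srsf3 (chromosome 17, 29032628 to 29043373), the smallest SR protein and an export adaptor, stood at -0.094 ± 0.11 with a mean count of 3166 in the authors' deposited table, an unadjusted p of 0.378 and an interval from -0.30 to 0.11. Srsf4 (chromosome 4, 131873617 to 131901706) stood at -0.16 ± 0.20 with a mean count of 543 in the authors' deposited table, an unadjusted p of 0.422 and an interval from -0.54 to 0.23. Its larger estimate came with a wider error, so the 3 overlap fully.

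At the other end of the SR group were Srsf5, Srsf12 and Srsf7. Srsf5 (chromosome 12, 80945504 to 80950507) was nearest to 0 at -0.0019 ± 0.10 (mean count 4047, unadjusted p 0.986) in the authors' deposited table, with an interval of -0.20 to 0.20. Srsf7 (chromosome 17, 80200080 to 80207307), an SR protein with a zinc knuckle, stood at -0.040 ± 0.12 (mean count 2024, unadjusted p 0.742) in the authors' deposited table, with an interval of -0.28 to 0.20. Srsf12 (chromosome 4, 33208991 to 33233340) stood at -0.13 ± 1.17 (mean count 13.6, unadjusted p 0.913) in the authors' deposited table. Its interval from -2.41 to 2.16 allows either direction.

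Between them, Srsf1 was at -0.056 ± 0.093 (mean 5451), Srsf2 at -0.054 ± 0.10 (mean 4211) and Srsf6 at -0.064 ± 0.11 (mean 3075) in the authors' deposited table. Srsf9 was at -0.048 ± 0.13 (mean 1561) and Srsf11 at -0.086 ± 0.11 (mean 3146) in the authors' deposited table. Apart from Srsf12, each SR gene had a mean of at least 543 and an SE of 0.20 or less.

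Core U2 genes were split. Sf3b1 (chromosome 1, 54985169 to 55027481), the largest SF3B subunit and the target of splicing inhibitors that bind the branch point pocket, stood at -0.096 ± 0.088 with a mean count of 7422 in the authors' deposited table, an unadjusted p of 0.274 and an interval from -0.27 to 0.076. Sf3a3 (chromosome 4, 124714776 to 124732460) stood at -0.11 ± 0.12 with a mean count of 2084 in the authors' deposited table, an unadjusted p of 0.366 and an interval from -0.34 to 0.13. U2af2 (chromosome 7, 5062143 to 5079938) stood at -0.067 ± 0.098 with a mean count of 5201 in the authors' deposited table, an unadjusted p of 0.495 and an interval from -0.26 to 0.13. Both U2AF genes with a mean count of at least 10 lay below 0, as U2af1 was at -0.088 ± 0.13 (mean 1529) in the authors' deposited table.

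The highest Wald statistics in core U2 belonged to Sf3b5, Sf3a1 and Sf3a2. Sf3b5 (chromosome 10, 13005343 to 13009183), the small SF3B subunit, stood at 0.11 ± 0.19 (mean count 619, unadjusted p 0.554) in the authors' deposited table, with an interval of -0.26 to 0.49. Sf3a1 (chromosome 11, 4160350 to 4182541), the scaffold of SF3A, stood at 0.050 ± 0.095 (mean count 5107, unadjusted p 0.596) in the authors' deposited table, with an interval of -0.14 to 0.24. Sf3a2 (chromosome 10, 80798198 to 80804924) stood at 0.066 ± 0.13 (mean count 1727, unadjusted p 0.614) in the authors' deposited table, with an interval of -0.19 to 0.32. Subunits of one complex thus lay on both sides of 0, with Sf3a3 below and Sf3a1 and Sf3a2 above, and Sf3a2 stood at -0.010 once a trend on GC content and length, described below, was taken out.

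The remaining SF3B genes were near 0. Sf3b2 was at -0.026 ± 0.091 (mean 7807), Sf3b3 at -0.021 ± 0.096 (mean 5710), Sf3b6 at 0.0046 ± 0.15 (mean 1198) and Sf3b4 at 0.077 ± 0.17 (mean 836) in the authors' deposited table. U2af1l4 stood at 0.43 ± 2.39 with a mean count of 3.11 in the authors' deposited table, and no direction can be read from it.

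Fold changes in this table moved with base composition, and the groups differ in it. The median GC content of annotated transcripts was 44.8% for hnRNP, 46.2% for SR and 50.6% for core U2, against 48.8% for abundant protein-coding genes. Across those 3635 genes, which share the same libraries, the correlation of log2 fold change with GC content was 0.43 (Pearson) and 0.45 (Spearman). Of genes with a GC content of 42% or less, 80.3% lay below 0, against 70.9% between 42% and 45%, 62.0% between 45% and 48%, 47.5% between 48% and 51%, 40.2% between 51% and 54%, and 23.4% above 54%. In the range from 42% to 45%, 8 of 9 hnRNP and 5 of 5 SR genes lay below 0. From 45% to 48% it was 5 of 5 hnRNP and 3 of 3 SR genes, and above 48% it was 3 of 3 SR genes but 2 of 5 hnRNP genes. Core U2 genes below 0 were 1 of 1 up to 42%, 0 of 1 from 42% to 45%, 2 of 3 from 45% to 48%, and 3 of 6 above 48%. The Pearson correlation with GC content was 0.55 over 20 hnRNP genes, -0.39 over 11 SR genes and 0.28 over 11 core U2 genes, and Spearman's was 0.48, -0.22 and 0.26. The part of base composition in these fold changes was not tested.

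**Figure D4:**
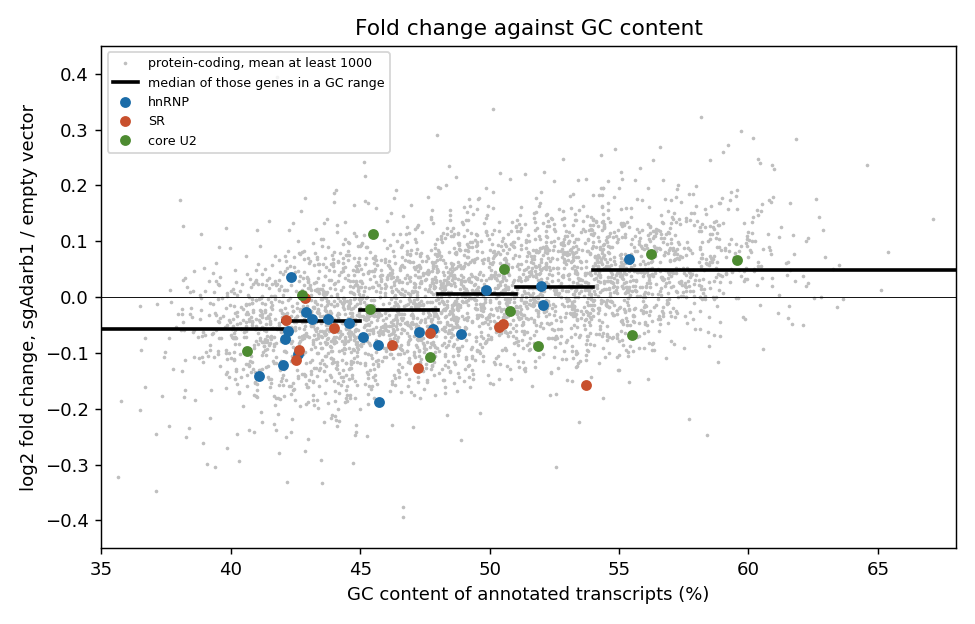
Log2 fold change against the GC content of annotated transcripts, with 1 point per gene, for abundant protein-coding genes (grey) and the 3 groups (colours). Black lines give the median of the grey genes in 6 GC ranges, from -0.058 at 42% or less to 0.048 above 54%, and most hnRNP and SR points lie in the lower GC ranges.

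When a quadratic trend on GC content and exon length was removed, the count below 0 changed most for hnRNP genes. Below 0 were then 11 of 20 hnRNP genes, 10 of 11 SR genes and 6 of 11 core U2 genes, against 50.4% of abundant protein-coding genes. The medians became -0.033 for hnRNP, -0.057 for SR and -0.010 for core U2. Hnrnpdl kept most of its difference, at -0.17 on the log2 scale, and Srsf4 and Srsf12 stood at -0.19 and -0.13. Hnrnpa2b1 went to -0.072, Hnrnph1 to -0.088 and Sf3b1 to -0.022, while U2af1 and U2af2 went further from 0, to -0.12 and -0.11. Signs turned for 8 of 42 genes, among them Hnrnpu at 0.0021 and Srsf5 at 0.032. No member passed the threshold with the trend removed (smallest adjusted p 1.00, Benjamini-Hochberg over 14547 genes).

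**Figure D5:**
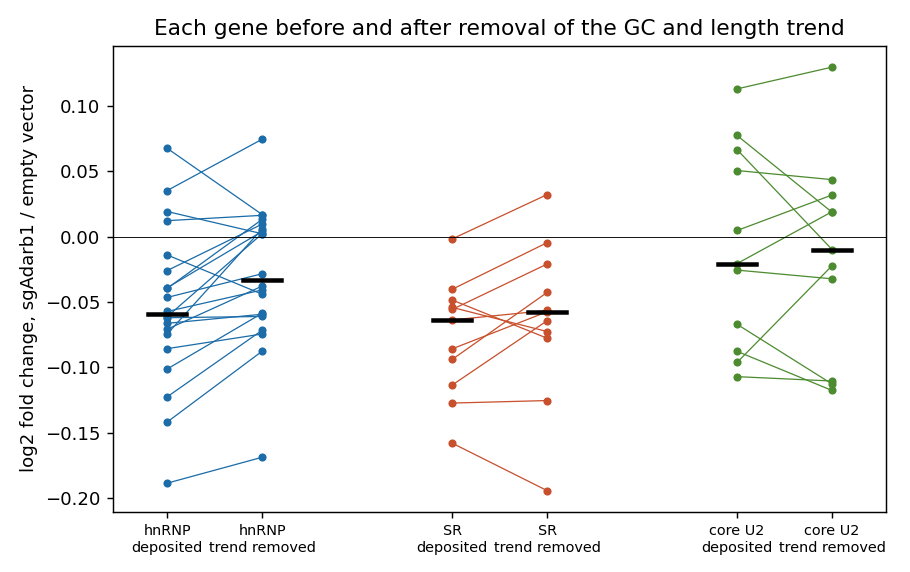
Log2 fold change of each gene as deposited and after removal of the GC and length trend (joined points), with the group median as a black bar. The hnRNP median goes from -0.059 to -0.033, the SR median from -0.064 to -0.057 and the core U2 median from -0.021 to -0.010.

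Other splicing factors were listed by role to set these genes in their pathway. In the authors' deposited table, 0 of 87 genes in 8 lists had a DESeq2 adjusted p under 0.05 and 1 had an unadjusted p under 0.05. That gene was U2surp, a U2-associated SR-related protein, at -0.24 ± 0.11 (mean count 3010, unadjusted p 0.030) in the authors' deposited table. Below 0 were 68 of the 87 genes (78.2%), with a median of -0.041, and 68 again once the GC and length trend was taken out (median -0.034).

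By role, 7 of 8 SR-like cofactors lay below 0, with Pnn at -0.15 ± 0.13, Acin1 at -0.14 ± 0.12 and Srek1 at -0.16 ± 0.15 in the authors' deposited table. Among the kinases and the importin that phosphorylate or carry SR proteins, 7 of 9 lay below 0, with Prpf4b at -0.075 ± 0.11 and Tnpo3 at -0.078 ± 0.12 but Srpk2 at 0.14 ± 0.19 in the authors' deposited table. Among hnRNP-like RNA-binding proteins 17 of 21 lay below 0, such as Tardbp (TDP-43) at -0.11 ± 0.098 and Syncrip at -0.096 ± 0.094, with Pcbp1 at 0.084 ± 0.091 in the authors' deposited table. Among other U2 and branch point factors it was 8 of 12, including the helicase genes Ddx46 at -0.18 ± 0.11 and Dhx15 at -0.13 ± 0.095 in the authors' deposited table.

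The Sm ring, which all spliceosomal snRNPs but U6 carry, had 6 of 7 genes below 0, with Snrpd1 at -0.088 ± 0.13, Snrpd2 at -0.096 ± 0.16 and Snrpd3 at -0.085 ± 0.14 in the authors' deposited table. For U1 it was 6 of 8, with Luc7l3 at -0.24 ± 0.13 and Prpf39 at -0.21 ± 0.17 in the authors' deposited table. For the tri-snRNP and catalytic core it was 12 of 16, with Prpf4 at -0.13 ± 0.17, Prpf31 at -0.095 ± 0.13 and Dhx8 at -0.083 ± 0.13 in the authors' deposited table. For the exon junction complex it was 5 of 6, with Rnps1 at -0.037 ± 0.12 and Magohb at -0.090 ± 0.30 below 0 and Casc3 at 0.14 ± 0.14 above it in the authors' deposited table. No test was made of whether the share below 0 in the SR and hnRNP groups differed from that in other splicing factors.

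Counting could mix reads for some members, because the strand setting is not stated in the labels or headers. Of the genes with a mean count of at least 10, 9 of 20 hnRNP, 8 of 11 SR and 7 of 11 core U2 genes share no exon with another gene, and 6, 8 and 4 of these lay below 0 in the authors' deposited table. Exons of Hnrnpm overlap March2 on the same strand by 1169 bases, at a mean of 646 for March2 against 6833 for Hnrnpm in the authors' deposited table. On the opposite strand, Hnrnph3 overlaps Rufy2 by 115 bases (mean 381), Srsf2 overlaps Mettl23 by 460 bases (mean 276) and Sf3a2 overlaps Plekhj1 by 429 bases (mean 706) in the authors' deposited table. Hnrnpab, the highest member per kb, overlaps Phykpl by 809 bases on the opposite strand (mean 575) in the authors' deposited table. U2af1l4 shares 1086 of its 1656 exon bases with Gm49396 on the same strand (mean 21.4) in the authors' deposited table. It also shares 119 bases with Psenen on the opposite strand, whose mean was 448 in the authors' deposited table. Its low count may therefore not give its level. Hnrnpa1 has processed copies, of which Hnrnpa1l2-ps and Hnrnpa1l2-ps2 had means of 0.266 and 1.47 in the authors' deposited table, and Hnrnph1 and Hnrnph2 are close paralogues, so reads that fit more than 1 copy make these values uncertain.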

How the data were processed

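RNA of 4 mouse Th17 cultures, 2 per group, was ribosome-depleted and sequenced, per the labels' protocols. STAR 2.6.1a, featureCounts and DESeq2 1.18.1 with mm10 are named in the submitters' processing notes. No label or header states the model formula, any donor term, the strand setting or the annotation. Per the file headers, the table deposited by the authors holds for each gene a mean signal (normalized count averaged over libraries), a log2 fold change and its standard error, a Wald score, and a raw and an adjusted p-value. The score equalled fold change over standard error, and the adjusted p-value equalled Benjamini-Hochberg over 29383 genes. The 26067 other genes had no fold change. A further 4 columns of values per library match no label and were not used, so depth per library, pairing and refits were not analysed. P-values measure only the spread between these cultures.

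All 55450 identifiers matched GENCODE M21. Intervals are the fold change ± the 95% normal quantile times the standard error. The quadratic trend on transcript GC content and log10 exon length was fitted with inverse-variance weights over genes with mean counts of 10 or more. Its code was tried on simulated data with a linear trend and independent errors of the deposited size. Since errors here are shared between genes, that trial does not show that the trend is fully removed in these data. Python 3.11.15, numpy 2.4.6, pandas 2.3.3, scipy 1.17.1 and matplotlib 3.10.9 were used. Every member was to be named, with full values for the 3 highest and 3 lowest Wald statistics per group, and the 3 smallest p-values per other list. Members and lists were chosen with earlier results of these data known. Protein sequences were not analysed here, and 1 gene that the naming rule picked is not reported here.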

Additional observations from a re-analysis of the deposited data

How the results depend on the processing

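The count of members past the threshold was 0 in the authors' deposited adjustment (DESeq2) and under the 5 alternatives run: adjustment over genes with mean counts from 10 or from 50, an unadjusted p below 0.05, Wald statistics scaled by their robust spread (smallest adjusted p of a member 0.182), and fold changes freed of the GC and length trend. Over all genes, 34 passed with scaled statistics and 3 without the trend, against 0 as deposited. Group medians (in 1 setting a precision-weighted mean) stayed below 0 for all 3 groups under the 10 alternatives each. They ran from -0.062 to -0.033 for hnRNP, from -0.075 to -0.056 for SR and from -0.067 to -0.0080 for core U2. Moves of over 1.5 times were those of hnRNP with the trend removed (-0.033), and of core U2 with the trend removed (-0.010), with no minimum mean (-0.0080), without Sf3b1 (-0.0080) and without overlapped genes (-0.067). Without members whose exons overlap another gene, 6 of 9 hnRNP genes lay below 0 against 16 of 20, so the share below 0 was lower as well as the number of genes. With the GC and length trend removed, 34 of 42 members kept their sign and 8 turned: Hnrnpc (0.0095), Hnrnpk (0.0039), Hnrnpll (0.013), Hnrnpr (0.0058), Hnrnpu (0.0021), Sf3b3 (0.019), Srsf5 (0.032) and Sf3a2 (-0.010), and none of these was called in either form. The 3 centrings of the fold changes, and the counts below 0, were chosen after seeing the data. No paired analysis was possible because no column of single libraries could be matched to a sample. Hence edgeR and DESeq2 refits, other size factors, groups from the treatment tag and omission of a culture were not run. Precision rests on the deposited SEs, since depth per library was not analysed here.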

Other observations

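Small nuclear RNAs, the RNA partners of these proteins, had low means in the authors' deposited table and wide errors. The U2 gene Rnu2-10 was at -0.030 ± 0.65 (SE, log2) at a mean count of 44.7, the U5 gene Rnu5g at 0.28 ± 0.77 at a mean count of 32.6, the U12 gene Rnu12 at 0.12 ± 1.17 at a mean count of 13.3 and the U1 gene Rnu1a1 at 0.76 ± 1.31 at a mean count of 10.3 in the authors' deposited table. Their copies are near-identical, so reads that fit several copies make these values uncertain. Adar, which encodes the related editing enzyme ADAR1, was at -0.030 ± 0.11 at a mean count of 2637 in the authors' deposited table. The snRNA genes were picked with their values known.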
